A study of Mus musculus with 42 samples.

Results

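Tuft cell marker genes were followed through 9 comparisons of mouse colon RNA-seq. They are 10 genes, Dclk1, Trpm5, Pou2f3, Il25, Gfi1b, Avil, Ptgs1, Alox5, Sh2d6 and Il17rb, of 20462 genes listed in all, and they were chosen by name as known markers of this cell and read by symbol in each of the 9 tables. Each had 1 row per table, except Il25, which had no row in the tumor table and was not analysed there. All mice were C57/BL6 and at least 8 weeks old. Mtg16-/- mice lack the transcriptional corepressor MTG16, T/T mice are homozygous for its P209T substitution, and each mutant was set beside WT littermates of its own colony. Of the 42 libraries in 14 groups, 23 came from untreated colon crypts, the epithelial glands freed from the first 5 cm after the cecum (proximal) or the last 5 cm before the anus (distal). Untreated proximal crypts gave 2 libraries each for Mtg16-/-, T/T and the WT mice of each colony. Untreated distal crypts gave 4 Mtg16-/- libraries with 4 WT, and 4 T/T libraries with 3 WT. Distal crypts were also taken after dextran sulfate sodium (DSS), a colitis-inducing agent given here at 2% in drinking water for 5 days and followed by 4 days of water, from 4 Mtg16-/- with 3 WT and from 3 T/T with 3 WT mice. Distal tumors came from 3 T/T and 3 WT mice after the carcinogen azoxymethane (AOM, 10 mg/kg) and 3 cycles of 3% DSS for 4 days with 16 days of water. The T/T mutation was made by genome editing, and the Mtg16-/- allele acts in every tissue, not in tuft cells alone.

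Tuft cells are rare chemosensory cells of the gut epithelium that carry a brush of microvilli. They sense luminal products through taste-like receptors and a calcium-activated channel, and answer with the cytokine IL-25, cysteinyl leukotrienes, prostaglandins and acetylcholine. IL-25 acts on innate lymphoid cells, whose IL-13 in turn increases tuft and goblet cells, an arrangement known best from the small intestine. They share with enteroendocrine and goblet cells an origin among the secretory cells of the crypt, but in contrast to those lineages they depend on the POU factor POU2F3.

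The members cover several roles. Among regulators, Pou2f3 (ENSMUSG00000032015.16, chr9:43123939-43210369, minus strand, GRCm38) encodes the factor that specifies tuft cells, and Gfi1b (chr2:28609450-28621982, minus) a zinc finger repressor that is also used by red cell and platelet precursors. In signaling, Il25 (chr14:54932695-54935837, plus) encodes the cytokine, Il17rb (chr14:29996135-30008896, minus) a subunit of its receptor that innate lymphoid cells carry too, and Trpm5 (chr7:143069153-143094642, minus) the cation channel of taste transduction. Dclk1 (chr3:55242364-55539068, plus), a microtubule-associated kinase, is the usual stain for tuft cells in mouse intestine and is also made by neurons. Avil (chr10:127000709-127020994, plus) encodes advillin, an actin-binding protein, and Sh2d6 (chr6:72513641-72521707, minus) an adaptor with an SH2 domain. Ptgs1 (chr2:36230426-36252272, plus) encodes cyclooxygenase 1 and Alox5 (chr6:116410077-116461178, minus) the lipoxygenase that starts leukotriene synthesis, enzymes shared with mast cells, platelets or myeloid cells. Trpm5, Avil, Ptgs1, Il17rb and Dclk1 share exonic bases with a gene on the other strand. These bases are at most 4.86% of a member's exonic bases (165 of 3398 for Avil, with Tsfm), and whether the authors' counting used strand is not given in the sources used here, so reads of such partners cannot be told apart there.

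MTG16 represses E proteins, factors that bind the E box, and POU factors bind the octamer, so the promoters of 8 members held in the RefSeq table (GRCm38.p6, 250 bases before and 50 after the start, 9 windows in all) were read for both motifs. The E box CANNTG, which reads the same on both strands, was in 6 of the 9 windows and in 72.3% of all 32851 windows of the table. The octamer ATGCAAAT, on either strand, was in 0 of the 9 and in 1.74% of all. The windows of Dclk1 and Trpm5, which were the 2 members called lower in Mtg16-/- crypts after DSS, and of Sh2d6, whose log2 fold change from proximal to distal crypts was the lowest of the 8 tested members, are shown 5′ to 3′ on the gene's strand with E boxes in capitals. Dclk1 has 2 windows, since the table holds 2 starts, chr3:55242114-55242413 and chr3:55461478-55461777.
Dclk1, first start: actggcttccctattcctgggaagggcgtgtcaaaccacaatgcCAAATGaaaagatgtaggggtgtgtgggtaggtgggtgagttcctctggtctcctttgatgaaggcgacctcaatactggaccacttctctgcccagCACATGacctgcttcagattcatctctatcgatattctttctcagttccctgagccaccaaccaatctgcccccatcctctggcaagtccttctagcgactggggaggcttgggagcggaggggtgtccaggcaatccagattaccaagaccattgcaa
Dclk1, second start: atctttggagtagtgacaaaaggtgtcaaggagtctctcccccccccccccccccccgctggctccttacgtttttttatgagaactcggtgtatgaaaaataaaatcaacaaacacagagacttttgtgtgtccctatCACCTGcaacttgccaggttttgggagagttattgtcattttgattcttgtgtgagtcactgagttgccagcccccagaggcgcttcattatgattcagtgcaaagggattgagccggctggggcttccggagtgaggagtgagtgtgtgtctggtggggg
Trpm5, chr7:143094593-143094892: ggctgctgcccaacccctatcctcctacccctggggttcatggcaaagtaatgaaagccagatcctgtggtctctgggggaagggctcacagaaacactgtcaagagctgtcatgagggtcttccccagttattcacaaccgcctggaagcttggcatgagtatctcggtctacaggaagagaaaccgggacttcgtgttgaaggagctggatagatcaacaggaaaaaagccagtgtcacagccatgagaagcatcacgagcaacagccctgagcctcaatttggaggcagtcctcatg
Sh2d6, chr6:72519987-72520286: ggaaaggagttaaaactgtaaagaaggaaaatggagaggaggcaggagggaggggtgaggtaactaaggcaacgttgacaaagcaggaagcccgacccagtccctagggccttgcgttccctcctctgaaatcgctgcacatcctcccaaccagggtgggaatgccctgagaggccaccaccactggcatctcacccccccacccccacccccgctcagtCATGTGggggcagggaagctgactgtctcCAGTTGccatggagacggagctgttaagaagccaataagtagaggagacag
The first Dclk1 start had 2 E boxes, CAAATG and CACATG, and the second start 1, CACCTG. The Trpm5 window held none, as did those of Avil and Alox5, and the Sh2d6 window held CATGTG and CAGTTG. These matches describe the letters and say nothing of binding.

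The deposited values are counts divided by library size factors. In 7 of the 9 tables they gave back whole reads for 38 libraries, from 32231389 to 74661961 reads assigned to genes. The targeted gene, Cbfa2t3 (which encodes MTG16), averaged 525.6 ± 83.2 (SD, n = 4) normalized counts in Mtg16-/- and 2128 ± 350 (SD, n = 3) in WT crypts after DSS. Before treatment the distal means were 725 ± 277 in Mtg16-/- and 1514 ± 341 in WT (SD, n = 4 each), a difference that did not pass (adjusted p = 0.303, limma; proximal 0.445), and 1 Mtg16-/- library at 1095 lay above 1 WT library at 1027. Reads of the gene are thus still counted in Mtg16-/- mice, and a substitution such as P209T cannot be checked this way. Epcam, an epithelial surface protein, was at 1182 to 2354 RPM (reads scaled by library total and TMM factor) in the 32 crypt libraries with recovered reads and at 1253 to 1525 in the tumors. No label says that each library came from a different mouse, and p-values measure the spread between libraries. In these bulk samples, fewer tuft cells and less RNA per cell cannot be told apart.

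The first comparison asked how tuft cell genes differ along the WT colon. Most were lower in distal than in proximal crypts. Of 8 members with enough counts to test, 6 were lower (Dclk1, Trpm5, Pou2f3, Ptgs1, Alox5 and Sh2d6), 0 were higher and 2 did not pass (limma, adjusted p below 0.05). Over all genes tested 42.1% were called in either direction and 22.0% were lower, so a call is common here. The groups did not overlap for 5 of the 8, against 30.0% of all genes tested. The median log2 fold change of the 8 was -0.91, with a median of 0.00 over all genes.

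Trpm5 was counted at 322 and 357 (T/T colony) and 479 and 259 (Mtg16-/- colony) in the 4 WT proximal libraries. In the 7 distal libraries its lowest, median and highest normalized counts were 124, 185 and 222. All proximal libraries thus lay above all distal ones, at a log2 fold change of -1.03 ± 0.19 (SE; adjusted p = 0.000557, limma; exact two-sided permutation p = 0.00606, the smallest this design allows). Dclk1 was at 438, 482, 744 and 408 in proximal libraries and between 221 and 383 in distal ones, with a median of 244. Its groups did not overlap either (log2 fold change -0.84 ± 0.20, adjusted p = 0.00425, limma).

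Among the other members, the mean count of Sh2d6 was 126 ± 56.6 (SD) over the 4 proximal libraries against 47.7 ± 15.6 over the 7 distal ones, a log2 fold change of -1.35 ± 0.29 (adjusted p = 0.00205, limma). For Ptgs1 the means were 64.9 ± 18.1 and 25.1 ± 3.99, a log2 fold change of -1.31 ± 0.22 (adjusted p = 0.000277, limma). Alox5 was lower in distal crypts too, with a change of -0.72 ± 0.22 on the log2 scale (adjusted p = 0.0179, limma). The regulator Pou2f3 was at 54.8, 58.9, 66.9 and 41.7 in proximal libraries and between 18.5 and 46.8 in distal ones. These ranges overlapped in 1 distal library, and the log2 fold change was -0.98 ± 0.26 (adjusted p = 0.00735, limma). Avil, at 289 ± 59.7 and 245 ± 58.6, and Il17rb, at 66.6 ± 19.5 and 101.1 ± 36.1, did not pass (adjusted p = 0.329 and 0.0848, limma). Gfi1b and Il25 were under the filter of a mean of 10. Gfi1b was nonetheless at 9.7 to 27.9 in proximal and 3.1 to 7.9 in distal libraries, which do not overlap, and Il25 at 1.0 to 5.6 and 0.0 to 1.9.

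**Figure D1:**
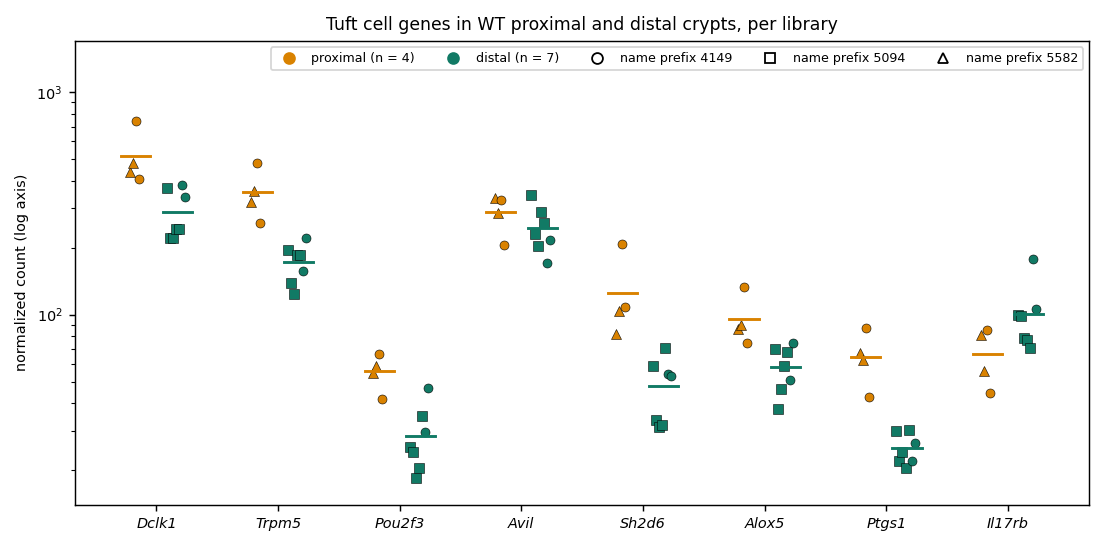
Normalized counts (log axis) of 8 tuft cell genes in each WT library of proximal (orange, n = 4) and distal (green, n = 7) crypts, with marker shapes for the number that opens the library name and lines at group means. Trpm5, Dclk1, Ptgs1, Alox5 and Sh2d6 are higher in every proximal library than in any distal one, while Il17rb has the higher mean in distal crypts.

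Library names open with a number that differs between sets of libraries and whose meaning the labels do not give. Only prefix 4149 held both segments, with 2 libraries of each. Within that prefix the 8 log2 fold changes kept their signs, from -1.47 for Sh2d6 to 1.14 for Il17rb, and 0 of the 8 passed with these 4 libraries, beside 14.5% of all genes. With the prefix as a covariate 3 passed, beside 23.0% of all genes: Sh2d6 (-1.47) and Ptgs1 (-1.30) lower and Il17rb (1.14) higher in distal crypts. The Trpm5 change was then -0.91 (adjusted p = 0.0592, limma) and the Dclk1 change -0.62 (adjusted p = 0.164). Without WT proximal replicate 1 of the Mtg16-/- colony, which had the highest proximal count of Dclk1, Trpm5, Pou2f3, Ptgs1, Alox5 and Sh2d6, Alox5 no longer passed (adjusted p = 0.0713, limma).

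Other tuft cell genes, from a list that leaves the members out, gave 19 lower and 3 higher calls. For these and the lists below, 42.1% of all genes tested were called in this comparison and 22.0% were lower. Of 6 tested chemosensing genes 3 were lower in distal crypts and 0 higher, and these were Rgs13 (log2 fold change -1.35 ± 0.20), a brake on G protein signaling, Itpr2 (-1.26 ± 0.16), a calcium release channel, and Plcb2 (-1.14 ± 0.20), the phospholipase upstream of Trpm5. Among 4 transcription factors 2 were lower, with Spib at -1.01 ± 0.16, and among 17 signaling and surface genes 13 were lower and 3 higher. Kctd12, an auxiliary subunit of GABA-B receptors, was at -1.77 ± 0.14, and Lrmp, the largest riser, at 2.09 ± 0.15. Among eicosanoid and acetylcholine genes 1 of 4 was lower and 0 higher. Enteroendocrine genes were called in both directions. Of 20 tested, 8 were higher in distal crypts, led by the hormones Insl5 (4.47 ± 0.20) and Pyy (2.15 ± 0.12), and 7 were lower, led by Sct (-3.49 ± 0.22). Of 19 goblet genes 6 were higher, led by the mucus protein gene Fcgbp (1.45 ± 0.18), and 5 lower, led by Retnlb (-4.14 ± 0.44). T cell and innate lymphoid genes were also lower in distal crypts, 6 of 7 tested, with summed counts of 414 to 1409 against 2473 to 3728, as were 3 of 6 B and plasma cell genes. Of 9 myeloid genes 4 were higher and 3 lower. Of 3 platelet and megakaryocyte genes Pf4 was higher (3.08 ± 0.21) and Gp1bb lower (-3.57 ± 0.36), and of 3 mast cell genes Cma1 was higher, at 237 ± 88.2 (SD, n = 7) in distal libraries and at 0 in the 4 proximal ones. The part of such cells in the counts of Il17rb and the other members was not tested.

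The next comparisons asked whether loss or mutation of MTG16 changed tuft cell genes in untreated crypts, and no member passed in any of them. In distal Mtg16-/- crypts 0 of 8 tested members passed, beside 0.239% of all genes, and 0 of 8 had an unadjusted p below 0.05. edgeR and DESeq2 on the recovered reads also called 0. Dclk1 was at 199, 523, 226 and 474 in the 4 Mtg16-/- libraries and at 249, 250, 393 and 345 in the 4 WT libraries. The Mtg16-/- values lay on both sides of the WT range, and the log2 fold change was 0.10 ± 0.34 (adjusted p = 1.00, limma). Trpm5 behaved likewise, at 137, 347, 87.1 and 254 in Mtg16-/- and 190, 190, 161 and 227 in WT libraries (log2 fold change -0.08 ± 0.40). The SD of Pou2f3 was 25.4 around a mean of 32.0 in Mtg16-/- crypts and 11.2 around 33.8 in WT. Mtg16-/- replicate 2 held the highest Mtg16-/- count of Dclk1, Trpm5, Pou2f3, Avil, Ptgs1, Alox5 and Sh2d6 and replicates 1 and 3 the lower ones. Within prefix 4149 and within prefix 5094, Trpm5 differed by -0.36 and 0.20 on the log2 scale, in opposite directions and without passing in either.

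In proximal Mtg16-/- crypts 0 of 9 tested members passed, beside 0.0645% of all genes, and 0 had an unadjusted p below 0.05. Dclk1 was at 540 and 901 in Mtg16-/- and 802 and 435 in WT, so the groups were interleaved. The 9 log2 fold changes ran from -0.59 ± 0.65 for Gfi1b to 0.53 ± 0.40 for Il17rb, with 8 above 0. With 2 libraries a group an exact permutation test cannot go below p = 0.333.

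In distal T/T crypts 0 of 8 tested members passed, beside 0.0369% of all genes, and 0 had an unadjusted p below 0.05 by limma. Dclk1 was at 244, 261, 231 and 254 in T/T and at 347, 207 and 203 in WT (log2 fold change 0.02 ± 0.20), and Trpm5 at 166, 146, 149 and 161 and at 183, 129 and 114 (0.16 ± 0.18). For both genes the T/T values fell inside the WT range. Both count tools also called 0 members there. In proximal T/T crypts 0 of 9 passed, beside 0.232% of all genes, and 0 had an unadjusted p below 0.05. There Dclk1 was at 517 and 622 in T/T and at 426 and 464 in WT, which do not overlap, at a log2 fold change of 0.35 ± 0.15 (adjusted p = 0.424, limma). Differences between these fold changes were tested as well, and 0 of 8 members passed for distal minus proximal in Mtg16-/- (0.0372% of all genes passed) or in T/T (0.0229%), or for Mtg16-/- minus T/T in distal crypts (0%), and 0 had an unadjusted p below 0.05 in any of the 3.

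**Figure D2:**
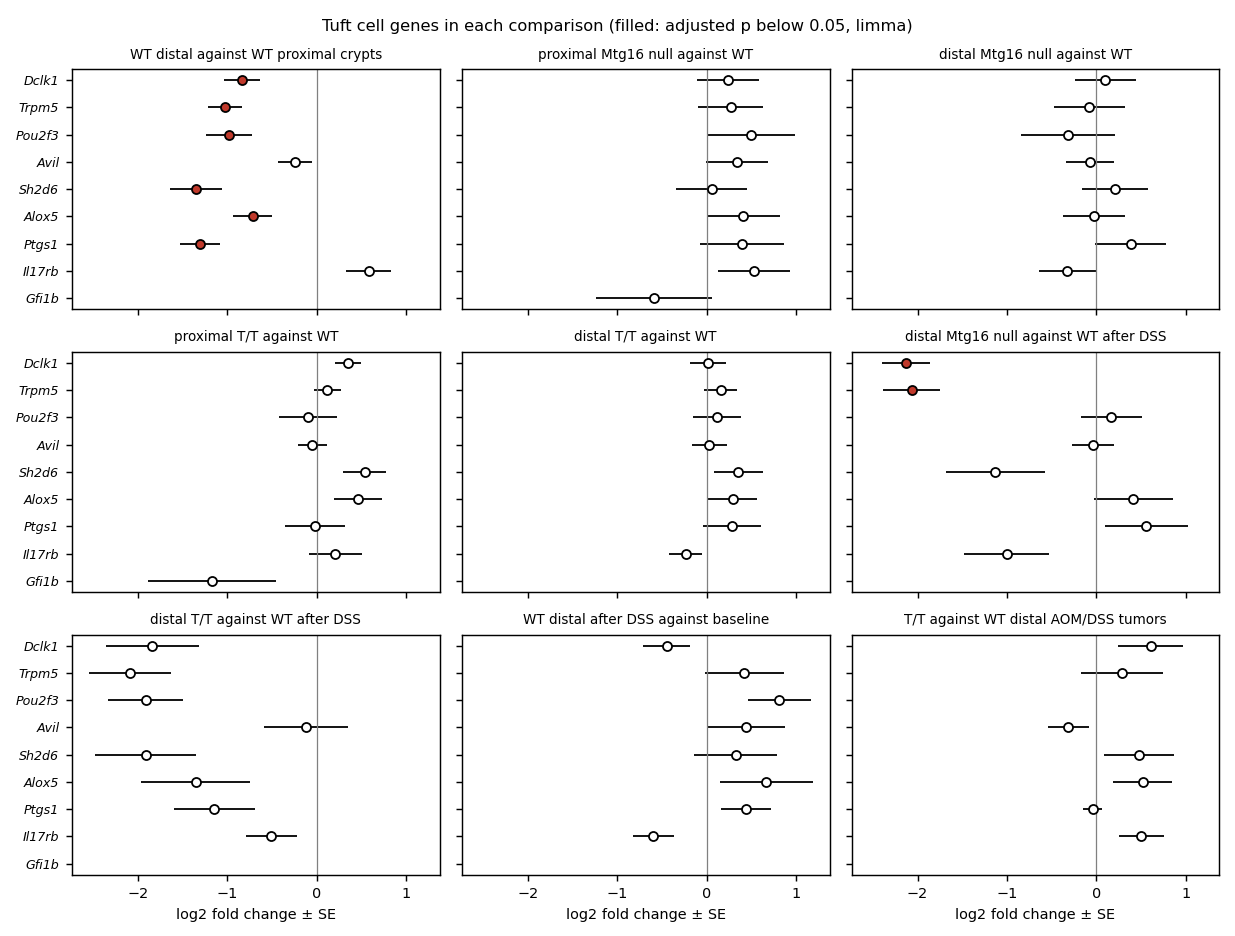
Log2 fold changes with their SE for the tested tuft cell genes in the 9 comparisons, with filled symbols for an adjusted p below 0.05 by limma. Filled symbols appear in the segment comparison (6 genes) and in Mtg16-/- crypts after DSS (Dclk1 and Trpm5).

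After DSS, Mtg16-/- distal crypts held less Dclk1 and Trpm5 RNA than those of their WT littermates, with log2 fold changes near -2.1, whereas the other 6 did not pass. Of 8 tested members 2 were lower and 0 higher, beside 0.629% of all genes called in either direction and 0.249% lower. The groups did not overlap for 4 of the 8, against 11.4% of all genes. The median of the 8 log2 fold changes was -0.52, with 0.00 over all genes.

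Dclk1 was at 44.6, 50.6, 40.8 and 48.4 normalized counts in the 4 Mtg16-/- libraries and at 181, 172 and 275 in the 3 WT libraries. Every Mtg16-/- library was below every WT library, and the spread among the 4 was small (46.1 ± 4.30, SD). The log2 fold change was -2.13 ± 0.27 (adjusted p = 0.0113, limma; exact two-sided permutation p = 0.0571, the smallest that 4 against 3 libraries allow). Trpm5 was at 24.1, 30.4, 37.2 and 28.4 in Mtg16-/- and at 135, 90.9 and 169 in WT libraries. Its groups were apart as well, at a log2 fold change of -2.07 ± 0.32 (adjusted p = 0.0262, limma). Both calls held in edgeR and DESeq2 on the recovered reads. They also passed with the replicate number as a block, a pairing that was taken from these data and that no label gives.

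Sh2d6 and Il17rb were also lower in each Mtg16-/- library than in any WT library but did not pass. Sh2d6 was at 3.6, 16.6, 18.2 and 11.6 against 23.8, 32.2 and 20.1 (log2 fold change -1.13 ± 0.55, adjusted p = 0.460, limma). Il17rb was at 12.1, 51.5, 42.7 and 26.3 against 56.2, 60.6 and 61.1 (-1.002 ± 0.48, adjusted p = 0.442, limma). Pou2f3, by contrast, was at 77.2, 40.5, 51.7 and 67.4 in Mtg16-/- and at 70.3, 40.1 and 47.4 in WT. These ranges overlap, and the log2 fold change was 0.17 ± 0.34 (adjusted p = 0.863, limma). Avil averaged 324 ± 32.4 and 342 ± 109. Ptgs1, at 40.4 ± 22.9 and 24.2 ± 3.43, and Alox5, at 86.4 ± 44.8 and 59.5 ± 16.0, had the higher mean in Mtg16-/- crypts, with wide spread (log2 fold changes 0.56 ± 0.47 and 0.41 ± 0.44). Il25 was at 0.0 in the 4 Mtg16-/- libraries and at 1.1, 2.9 and 1.8 in WT, too few counts for a fold.

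Genes of other cells were read in the same table. Summed counts of myeloid genes were 13591 to 31162 in Mtg16-/- and 9554 to 13299 in WT libraries, with Lyz2, the macrophage lysozyme, at 2971 ± 1805 (SD, n = 4) and 311 ± 206 (SD, n = 3; adjusted p = 0.0480, limma). Of 10 myeloid genes tested 1 passed as higher and 9 were above 0, with a median log2 fold change of 2.23. Fibroblast genes (0 of 5 called, median 1.23) summed to 651 to 4669 and 654 to 911, red blood cell genes (0 of 4, median 3.30) to 455 to 5700 and 62.5 to 257, and B and plasma cell genes (0 of 6, median 1.21) to 11612 to 17435 and 10364 to 14271. Of 6 mast cell genes, with a median of -0.64, 1 was called, and their sums were 565 to 1690 and 955 to 2244, with the mast cell protease Cma1 lower in Mtg16-/- (log2 fold change -2.26 ± 0.34, adjusted p = 0.0248, limma). Neuron and glia genes summed to 2386 to 5638 and 1810 to 2666. Of 4 tested 2 were above 0 and 2 below, with a median of 0.18, and 1 was called higher, Ret, a receptor of enteric neurons (850 ± 110, SD, n = 4, and 311 ± 25, SD, n = 3; adjusted p = 0.0111, limma). Leaving out 1 of the 7 libraries at a time ended the call of Lyz2 in 6 cases (all but Mtg16-/- replicate 2; adjusted p up to 0.122, limma), that of Cma1 in 4 (replicates 1 and 3 of either group; up to 0.0906) and that of Ret in 0. The part of these cells in the counts of Dclk1, Alox5, Ptgs1 and Gfi1b was not tested. Epcam ranged from 1182 to 2102 RPM in the Mtg16-/- and from 1638 to 2169 in the WT libraries. The calls also rested on few libraries. Without WT replicate 3 neither gene passed (Dclk1 -1.92, adjusted p = 0.0560; Trpm5 -1.87, adjusted p = 0.0970, limma), and Trpm5 also missed the threshold without WT replicate 1 or Mtg16-/- replicate 1, 3 or 4, with adjusted p from 0.0597 to 0.0707.

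**Figure D3:**
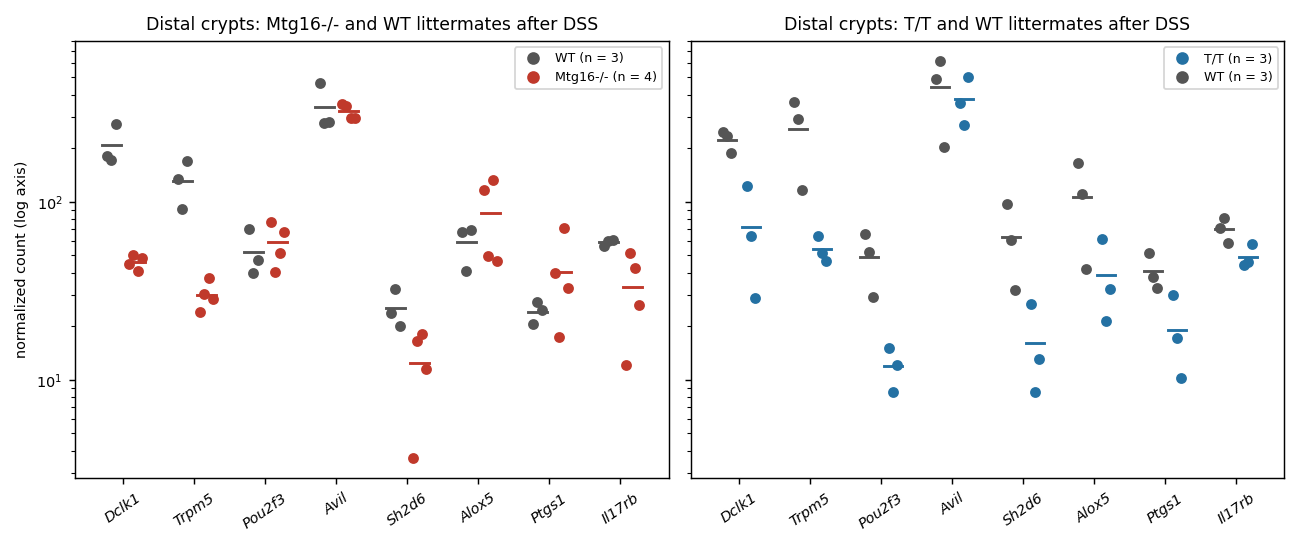
Normalized counts (log axis) of 8 tuft cell genes in each library of distal crypts after DSS, for Mtg16-/- with its WT littermates (left) and T/T with its WT littermates (right), with lines at group means. Dclk1 and Trpm5 are lower in every mutant library on both sides, and Pou2f3 is lower in every T/T library (8.6 to 15.03 against 29.3 to 65.6) but overlaps on the left.

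In T/T crypts after DSS the means of all 8 tested members were below those of WT, and by limma 0 passed. Here 0 of 8 tested members passed, beside 0% of all 13648 genes. An unadjusted p below 0.05 by limma was found for 5 of the 8, beside 1197 of the 13648 genes. DESeq2 on the recovered reads called 2, Trpm5 and Pou2f3, beside 2.45% of all genes, and edgeR 0. All 8 log2 fold changes were below 0 with a median of -1.60, where the median of all genes was 0.03. The groups did not overlap for 6 of the 8, against 13.7% of all genes.

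Trpm5 was at 64.4, 51.5 and 46.5 in T/T libraries and at 366, 291 and 116 in WT libraries. The groups were apart, although the WT libraries ranged widely, and the log2 fold change was -2.09 ± 0.46 (adjusted p = 0.246, limma; exact two-sided permutation p = 0.1, the smallest that 3 against 3 allow). Pou2f3 was at 15.03, 8.6 and 12.1 against 65.6, 52.4 and 29.3 (log2 fold change -1.91 ± 0.42, adjusted p = 0.242, limma). Dclk1 was at 123, 64.4 and 28.9 against 247, 235 and 189 (-1.84 ± 0.52, adjusted p = 0.355, limma). The regulator, the channel and the kinase were thus lower in each T/T library than in any WT library.

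Sh2d6 was at 26.8, 8.6 and 13.03 against 96.7, 61.3 and 31.9, Ptgs1 at 30.1, 17.2 and 10.2 against 51.5, 37.9 and 32.7, and Il17rb at 44.0, 45.8 and 57.7 against 71.3, 81.4 and 58.6, again without overlap. Alox5 (62.3, 21.5 and 32.6 against 165, 110 and 42.2) and Avil (377 ± 116 and 440 ± 214) overlapped. Gfi1b, under the filter, was at 1.1, 2.9 and 0.9 against 14.8, 10.0 and 7.8. WT replicate 3 had the lowest WT count of all of these genes, and T/T replicate 1 the highest T/T count of Dclk1, Trpm5, Pou2f3, Sh2d6, Ptgs1 and Alox5. Red blood cell genes summed to 541 to 2612 in T/T and 152 to 413 in WT libraries (median log2 fold change 2.75), and myeloid genes to 7688 to 13047 and 7433 to 9109 (median 0.21). Neuron and glia genes summed to 839 to 1180 in T/T and 422 to 498 in WT libraries, without overlap, and the 3 tested had a median log2 fold change of 1.28. B and plasma cell genes summed to 11630 to 20377 and 12022 to 16714, and the median of the 6 tested was 1.91. In each of these 4 lists 0 genes passed. Their part in the result was not tested.

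Whether the mutant effects after DSS differed from each other or from those before DSS was tested as a difference of fold changes. In these differences the share of all genes with an unadjusted p below 0.05 was not counted. For Mtg16-/- minus T/T after DSS 0 of 8 members passed, beside 0.0148% of all genes, and 3 had an unadjusted p below 0.05. These were Pou2f3 (0.17 against -1.91, difference 2.08 ± 0.54, unadjusted p = 0.00143, adjusted p = 0.720, limma), Ptgs1 (0.56 against -1.15) and Alox5 (0.41 against -1.36). Dclk1 and Trpm5 had like values in both mutants, with differences of -0.29 ± 0.59 and 0.02 ± 0.56 (SE), which does not show that they were alike. For after DSS minus baseline in Mtg16-/- 0 of 8 passed, beside 0.00738% of all genes, with Dclk1 at -2.23 ± 0.44 (adjusted p = 0.156) and Trpm5 at -1.99 ± 0.51 (adjusted p = 0.439, limma). For the same difference in T/T 0 of 8 passed, beside 0.234% of all genes, and 6 had an unadjusted p below 0.05: Sh2d6 (-2.27), Trpm5 (-2.25 ± 0.50), Pou2f3 (-2.03), Dclk1 (-1.86), Alox5 (-1.65) and Ptgs1 (-1.43), with adjusted p from 0.0993 (Trpm5) to 0.408 (Alox5). The fall after DSS was therefore not shown to exceed the baseline change for any member once all genes were adjusted for.

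WT distal crypts of the T/T colony were also compared after DSS and at baseline. These comparisons share libraries: the baseline WT libraries serve in the segment and distal T/T comparisons and the DSS ones in the T/T comparison after DSS. DSS and the prefix of the library names, 5740 against 5094, coincide here and cannot be told apart. Of 8 tested members 0 passed, beside 35.6% of all genes. An unadjusted p below 0.05 by limma was found for 1 member, beside 6828 of 13566 genes. edgeR called 0 and DESeq2 1 (Il17rb, -0.62), beside 44.1% of all genes. Dclk1 was at 227, 218 and 179 after DSS and at 403, 237 and 235 at baseline, which do not overlap (log2 fold change -0.45 ± 0.26). Transcript length moved with this comparison: genes with the longest transcripts, from 6696 bases, had a median log2 fold change of -0.65 and those with the shortest, up to 1370.5 bases, one of 0.22. The longest Dclk1 transcript has 7962 bases, and without each library's trend with length its change was 0.22, of the other sign.

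Trpm5 was at 337, 270 and 110 after DSS and at 212, 148 and 132 at baseline, Pou2f3 at 60.4, 48.6 and 27.7 and at 27.9, 25.9 and 19.7. In both, DSS replicate 3 was within or below the baseline range and the other two were above it. Without that library 66.9% of all genes passed and 32.2% passed as higher, and 4 members passed as higher after DSS: Trpm5 (0.90), Pou2f3 (1.13), Avil (0.91) and Alox5 (1.21), with adjusted p from 0.00934 to 0.0125 (limma). DSS and the name prefix also coincide in the Mtg16-/- colony, 6217 against 4149 and 5094, and cannot be told apart there. In RPM, as a description, WT crypts of the Mtg16-/- colony were at 1.70 to 3.198 after DSS and 3.75 to 5.17 at baseline for Trpm5, without overlap and in the other direction. Their means were 1.11 and 1.48 for Alox5, 0.980 and 0.775 for Pou2f3 and 6.38 and 5.50 for Avil. Of the listed tuft cell genes other than members, 2 of 6 chemosensing genes were lower after DSS, Gnat3 (-3.16 ± 0.42), the taste G protein, and Rgs13 (-1.22 ± 0.30), as were 2 of 4 eicosanoid genes, Hpgds (-2.41 ± 0.47) and Pla2g4a (-2.11 ± 0.37), and 2 of 17 signaling and surface genes. These 4 named calls were lost when single libraries were left out, Rgs13 in 5 cases (all but DSS replicate 3; adjusted p up to 0.0897, limma), Hpgds and Pla2g4a in 4 (any baseline library or DSS replicate 1; up to 0.0700 and 0.0604) and Gnat3 in 1 (without baseline replicate 2, 0.0534), and that of Rgs13 also with the replicate number as a block (0.0565). None of these 3 lists held a gene that was higher. In the same comparison 13 of 19 goblet genes were higher and 1 lower, and 7 of 20 enteroendocrine genes were higher and 2 lower.

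In AOM/DSS tumors the question was again the T/T genotype, and no member passed. Of 7 tested members 0 passed, beside 0% of all genes, and 0 had an unadjusted p below 0.05 by limma, with edgeR and DESeq2 calling 0. The groups did not overlap for 1 of the 7, Il17rb, against 5.52% of all genes. Dclk1 was at 452, 606 and 317 in T/T and 485, 255 and 199 in WT tumors, which overlap (log2 fold change 0.61 ± 0.36). Il17rb was at 99.9, 139 and 108 in T/T and 91.6, 67.8 and 83.8 in WT tumors (0.50 ± 0.25, adjusted p = 0.998, limma). Trpm5 was between 16.7 and 46.3 and Pou2f3 between 4.8 and 14.7 in all 6, at low counts, while Ptgs1 was at 1197 to 1365 and Avil at 3250 to 6712.

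To set baseline, DSS and tumor groups on one scale, RPM after TMM scaling were computed over the 38 libraries with recovered reads, as a description without a test. These RPM keep each library's trend with transcript length, and groups after DSS also differ from untreated ones in name prefix. The 4 proximal Mtg16-/- and T/T libraries are not on this scale. Of the 12 groups on it, Dclk1 was highest in WT proximal crypts, with means of 13.8 and 10.98 in the 2 colonies, then at 6.28 to 8.17 in the 4 untreated distal groups, 4.57 and 3.92 in WT crypts after DSS, 1.502 in T/T and 0.862 in Mtg16-/- crypts after DSS. Neighbours in this order among the untreated distal groups overlapped library by library. The mean of T/T tumors, 7.61, lay among theirs, and that of WT tumors, 5.11, between theirs and those of WT crypts after DSS. Among the same 12 groups, Trpm5 had its highest means in WT proximal crypts, 8.84 and 8.10, and its lowest in Mtg16-/- crypts after DSS (0.560) and tumors (0.488 and 0.596). Pou2f3 ran from 1.36 in WT proximal crypts of the T/T colony to 0.246 in T/T crypts after DSS and 0.146 in WT tumors, with Mtg16-/- crypts after DSS at 1.10, among the higher values.

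Avil and Ptgs1 had another order, with their highest means in tumors. Avil was at 80.3 and 64.6 RPM in WT and T/T tumors and at 5.37 to 8.91 in the crypt groups, and Ptgs1 at 21.2 and 20.9 and at 0.398 to 1.55. No crypt library reached a tumor library for either gene. Alox5 also had its 2 highest means in tumors, 3.90 in T/T and 2.52 in WT, but WT proximal crypts of the Mtg16-/- colony were at 2.49 and its tumor and crypt libraries overlapped. Tsfm, the gene that shares bases with Avil, had means of 19.7 and 21.5 in tumors and 26.8 to 37.8 in crypts, lower in tumors than in crypts. Tumors were whole pieces of tissue rather than crypts. Fibroblast genes summed to 130983 to 184014 normalized counts in tumors and at most 4669 in the crypts after DSS, in tables that the authors scaled separately. Tissue, AOM and name prefix cannot be told apart in these levels. Per kilobase of exon, the level of Avil in untreated WT distal crypts (1.62 and 1.801 in the 2 colonies, in that unit divided by kilobases of exon) was above those of Sh2d6 (0.733 and 0.575), Trpm5 (0.688 and 0.561), Il17rb (0.685 and 0.588), Dclk1 (0.464 and 0.417), Alox5 (0.360 and 0.295), Pou2f3 (0.251 and 0.174) and Ptgs1 (0.151 and 0.154). Gfi1b (0.0773 and 0.0623) and Il25 (0.0239 and 0) came last.

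**Figure D4:**
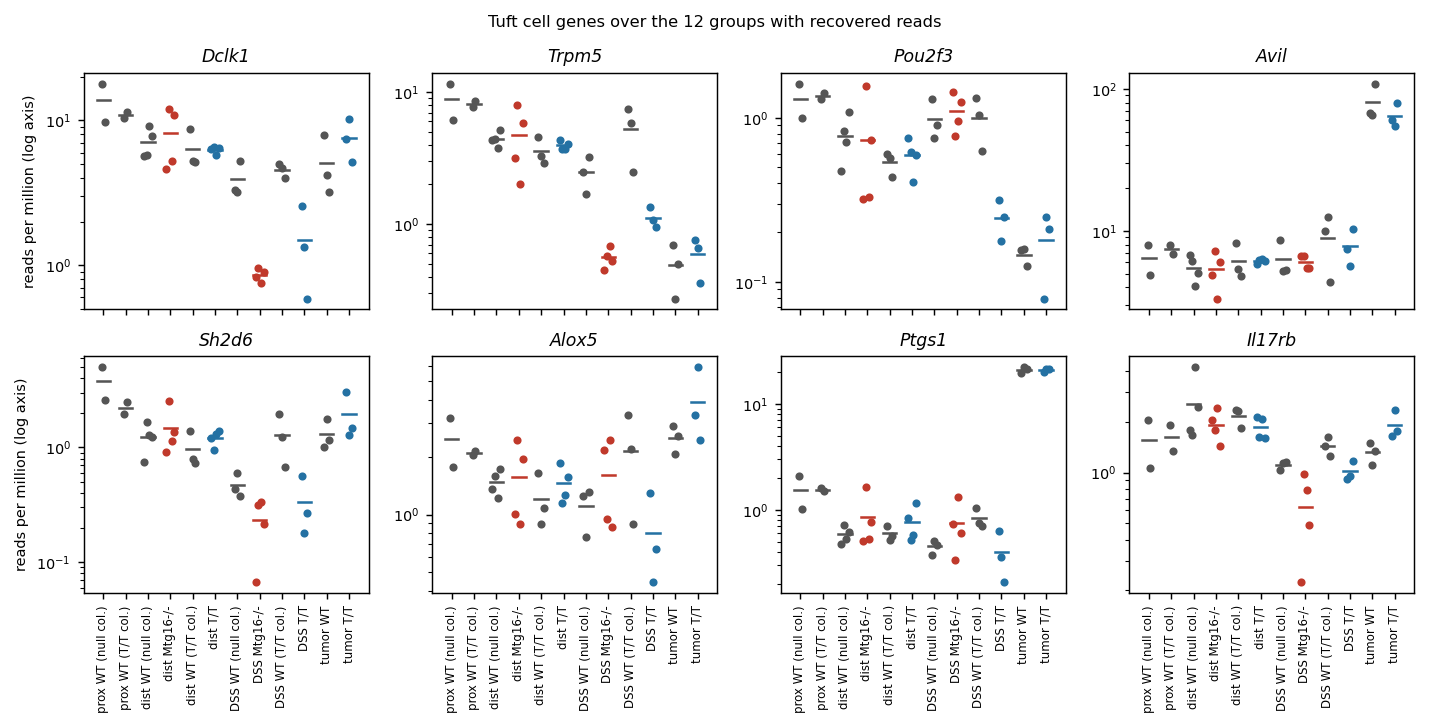
RPM after TMM scaling (log axis) of 8 tuft cell genes in each library of the 12 groups with recovered reads, in grey for WT, red for Mtg16-/- and blue for T/T, with lines at group means. Dclk1 and Trpm5 are low in both mutants after DSS, and Avil and Ptgs1 are high in all 6 tumors.

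Enteroendocrine and goblet genes, the other secretory lineages, were read in the same libraries. In untreated distal Mtg16-/- crypts, where 0 members passed and their median log2 fold change was -0.05, all 20 enteroendocrine genes tested were above 0 with a median of 1.37, and 4 passed as higher. Among them Tph1, the serotonin synthesis enzyme, was at 1.72 ± 0.21 (adjusted p = 0.0201, limma) and Neurod1, an endocrine transcription factor, at 1.59 ± 0.18 (adjusted p = 0.0170). Both calls were lost without any 1 of 7 of the 8 libraries, all but Mtg16-/- replicate 2 (adjusted p from 0.0511 to 0.0983 for Tph1 and 0.0596 to 0.0924 for Neurod1, limma), and with the replicate number as a block (0.185 each). In the other untreated comparisons 0 of 20 enteroendocrine genes passed, with medians of 0.70 in proximal Mtg16-/-, 0.69 in proximal T/T and 0.54 in distal T/T. Of 19 goblet genes 0 passed in either distal comparison. In proximal Mtg16-/- crypts Tff3, a trefoil peptide of goblet cell mucus, was higher (1.65 ± 0.17, adjusted p = 0.0453, limma) and Reg4, a secreted lectin, lower (-1.60 ± 0.12, adjusted p = 0.0113, limma). In proximal T/T crypts Tff3 was also higher (0.92 ± 0.09, adjusted p = 0.0380, limma), and no other goblet gene passed. These calls rest on 2 libraries a group, and all 3 were lost when single libraries were left out: Reg4 and Tff3 without Mtg16-/- replicate 1 (adjusted p = 0.0882 and 0.203, limma) or 2 (0.0839 and 0.145), and Tff3 in T/T without T/T replicate 1 (0.0692) or WT replicate 1 (0.324) or 2 (0.131). Tff3 also missed the threshold without the filter on low counts (0.0596 in Mtg16-/- and 0.0772 in T/T). After DSS in Mtg16-/- the medians were -0.52 for the members and 0.75 for the enteroendocrine genes, of which 2 passed as higher, Cck (1.79 ± 0.24) and Neurog3 (1.66 ± 0.27), and 0 as lower. The goblet median was -0.26 with 1 of 19 lower, Atoh1, the factor that commits cells to the secretory fate (-1.16 ± 0.16, adjusted p = 0.0165, limma). Leaving out 1 of the 7 libraries ended the call of Neurog3 in 6 cases (all but WT replicate 1; adjusted p up to 0.119, limma), that of Atoh1 in 4 (WT replicate 3 and Mtg16-/- replicates 1, 3 and 4; up to 0.0675) and that of Cck in 0. In T/T after DSS the medians were -1.60 for the members, 0.47 for enteroendocrine and -0.37 for goblet genes, with 0 calls in each. These lists were not tested against each other.

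Among the tuft cell genes outside the 10, none of those tested passed in either mutant after DSS. In Mtg16-/- 0 of 4 chemosensing, 0 of 2 transcription factor, 0 of 4 eicosanoid and 0 of 17 signaling and surface genes passed, with medians of -0.47, 0.09, 0.62 and 0.05 on the log2 scale. In T/T 0 of 5, 0 of 4, 0 of 4 and 0 of 17 passed, with medians of -0.28, -1.18, 0.21 and -0.47.

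**Figure D5:**
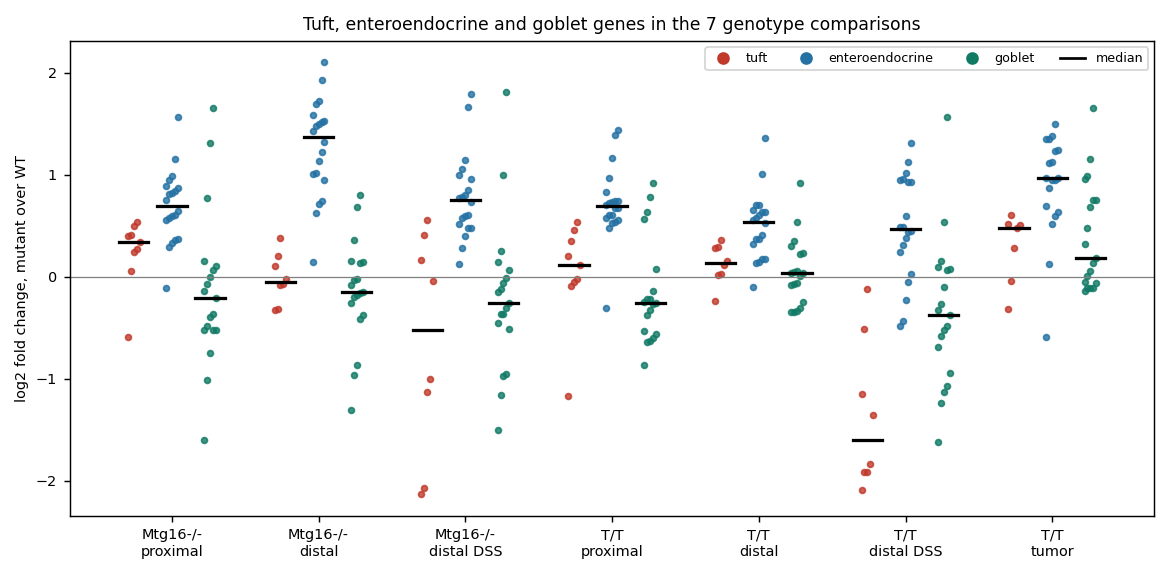
Log2 fold changes of mutant over WT for the tested tuft (red), enteroendocrine (blue) and goblet (green) genes in the 7 genotype comparisons, 1 point per gene, with black lines at medians. Tuft medians are -0.52 and -1.60 in the 2 DSS comparisons, where enteroendocrine medians are 0.75 and 0.47.

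Libraries of the same group also varied in these genes, and that variation was partly shared. Each of the 42 libraries was used once, as its deviation from its group mean in log2(normalized count + 1), and the 7 members with a mean of at least 10 in all tables gave 21 pairs. Their Pearson correlations ran from -0.10 to 0.76 with a median of 0.39, and the median over all 12808 other genes with the mean of the members was -0.01. Trpm5 and Alox5 had the highest value (r = 0.76, Spearman 0.76), then Ptgs1 and Alox5 (r = 0.69, Spearman 0.70) and Dclk1 and Trpm5 (r = 0.66, Spearman 0.73). Il17rb stood apart, with r = 0.11 and a Spearman correlation of 0.14 against the mean of the other members, where Trpm5 had r = 0.81. The mean of 19 enteroendocrine genes had r = 0.04 with the members and that of 19 goblet genes r = 0.48, and 2 mast cell genes had r = 0.50. Of the other tuft cell lists, 4 chemosensing genes had r = 0.76, 17 signaling and surface genes 0.66, 2 transcription factors 0.45 and 4 eicosanoid and acetylcholine genes 0.15. Genes of a library share its depth and scaling, and these values describe the libraries and carry no test.

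The 5 genes other than members most like their mean over the 42 libraries were Sh2d7 (r = 0.80), a relative of Sh2d6 on the list of tuft cell signaling genes, Pik3r5 (r = 0.76), a regulatory subunit of phosphoinositide 3-kinase gamma, Tbc1d1 (r = 0.74), a Rab GTPase-activating protein, Stard8 (r = 0.74), a GTPase-activating protein of the START domain family, and Ang4 (r = 0.72), an angiogenin family ribonuclease.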

How the data were processed

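RNA-seq was read in 42 libraries of 14 groups from 9 tables, with columns mapped to samples by the library names in the sample descriptions. The deposited signal values are gene counts that the authors made with fastp 0.20.0 and Salmon 1.3.0 and divided by DESeq2 1.26.0 size factors within each table, per the submitters' processing notes. The tables' own comparison columns (mean, fold change, error, statistic, p and adjusted p) were not used, and 0 per-sample columns were left unmapped. For 38 libraries, 100% of values came out as whole reads within 0.1 once the size factors were undone. Levels of the members across tables were set only from these reads, as RPM with edgeR's TMM factors.

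Each comparison was fitted within its own table with limma 3.58.1 (R 4.3.3) on log2(normalized count + 1) for genes with a mean of at least 10, with Benjamini-Hochberg adjustment over all genes tested and a threshold of 0.05. Fold changes on this scale understate changes of low genes. Permutation tests were exact and two-sided. Alternatives were a pseudocount of 0.1, no filter, each library left out, the replicate number as a block, the prefix of the library names or the colony as covariates, and edgeR 4.0.16 or DESeq2 1.42.0 on the recovered reads. A correction for transcript length was added after the data were seen. The fits were tested on simulated data. For Mtg16-/- after DSS, same-numbered libraries deviated together (r = 0.55, 0.46 and 0.32 in the 3 pairs), and the numbers were taken as pairs there. No label gives these pairs. In T/T after DSS the same-numbered libraries had r = -0.03, -0.71 and -0.77. Named were all members, Cbfa2t3, up to 3 called genes per list and direction with the largest change, and the 5 genes most like the members; Epcam and Tsfm were named after their values were seen, and 1 gene that the rule names is not reported here. The members and lists were chosen with earlier results of these data known.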

Additional observations from a re-analysis of the deposited data

How the results depend on the processing

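Counts of members called held within 1.5 times under the alternatives run, except the following. Distal against proximal WT crypts gave 6 calls, 3 with the prefix of the library names as a covariate and 0 within prefix 4149 alone. T/T after DSS gave 0 by limma and 2 by DESeq2. WT crypts after DSS against baseline gave 0, then 1 without the filter on low counts (Il25, adjusted p = 0.0458, limma) and 1 by DESeq2. Leaving out 1 library in turn gave 0 to 2 calls for Mtg16-/- after DSS and 0 to 4 for WT after DSS against baseline. In the first, 0 were called without WT replicate 3, and 1 without WT replicate 1 or Mtg16-/- replicate 1, 3 or 4. In the second, 4 were called without WT replicate 3 after DSS. The causes were not tested.

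With the replicate number as a block, 2 members were called for Mtg16-/- after DSS (Dclk1 adjusted p = 0.00229, Trpm5 adjusted p = 0.00387, limma). Avil turned from -0.04 to 0.00219. No label pairs these libraries. The numbers were taken as pairs there because the same data deviated together, so these p-values are no added support. Mtg16-/- replicate 4 has no WT partner and was left out of this fit. In the other comparisons the libraries likewise share only a number. There the block gave 6 calls between segments, with Alox5 lost (adjusted p = 0.0596, limma) and Gfi1b, which passed the filter over these libraries, gained (adjusted p = 0.0384, limma), and 0 in each of the others. Under it the enteroendocrine genes Tph1, Neurod1 and Chga no longer passed in untreated distal Mtg16-/- crypts (adjusted p = 0.185 each, limma), nor Rgs13 in WT after DSS against baseline (adjusted p = 0.0565, limma). The block ended no other call of a gene named here.

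Directions turned in log2 fold changes that had not passed. For untreated distal Mtg16-/- crypts, Dclk1 was -0.17 and Sh2d6 -0.0182 within prefix 4149, and Trpm5 was 0.20, Pou2f3 0.17, Alox5 0.0839 and Il17rb 0.13 within prefix 5094. By edgeR and DESeq2 on the reads, Trpm5 was 0.10 and 0.11 and Alox5 0.0883 and 0.0964 there. In distal T/T, edgeR and DESeq2 gave Dclk1 -0.0280 and -0.0265 and Avil -0.00896 and -0.00771. Without each library's trend with transcript length, Dclk1 was 0.22 in WT after DSS against baseline and Cbfa2t3 -0.17 in T/T after DSS.

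Leaving out 1 library also moved some values across 0. For proximal Mtg16-/- the ranges were -0.20 to 0.68 for Dclk1, -0.18 to 0.72 for Trpm5, -0.0766 to 1.07 for Pou2f3, -0.0430 to 0.72 for Avil, -0.12 to 0.91 for Ptgs1, -0.0128 to 0.84 for Alox5 and -0.42 to 0.53 for Sh2d6. For distal Mtg16-/- they were -0.13 to 0.34 for Dclk1, -0.39 to 0.27 for Trpm5, -0.23 to 0.14 for Avil, -0.28 to 0.20 for Alox5 and -0.0873 to 0.40 for Sh2d6. For proximal T/T they were -0.37 to 0.18 for Pou2f3, -0.17 to 0.0719 for Avil, -0.39 to 0.35 for Ptgs1 and -0.0606 to 0.47 for Il17rb. For distal T/T they were -0.11 to 0.27 for Dclk1, -0.0289 to 0.27 for Pou2f3 and -0.13 to 0.26 for Avil. After DSS they were -0.00639 to 0.39 for Pou2f3 and -0.16 to 0.21 for Avil in Mtg16-/-, and -0.60 to 0.20 for Avil and -0.0262 to 0.21 for Cbfa2t3 in T/T. Sh2d6 ran from -0.0359 to 0.73 in WT after DSS against baseline and Trpm5 from -0.0735 to 0.60 in tumors. With 2 to 4 libraries a group in the genotype comparisons, small changes were not detectable. Il25 was under the filter in every comparison that lists it, and Gfi1b in all but proximal Mtg16-/- and proximal T/T.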
